A study of Mus musculus with 6 samples.

Results

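The loci of 10 microRNA genes that have been studied in fat (Mir143, Mir145a, Mir193b, Mir365-1, Mir133a-1, Mir155, Mir27b, Mir30a, Mir378a and Mir21a) were examined in ATAC-seq peak lists. ATAC-seq uses the transposase Tn5 to cut open chromatin, so a pileup of cut sites marks an accessible region. The cells were undifferentiated preadipocytes (day 0), grown out of the inguinal white fat of adult C57BL/6 mice and plated on collagen. The genotypes were wild type (WT, 3 libraries) and Hmgn1-/- Hmgn2-/- (DKO, 3 libraries), which lack the nucleosome-binding proteins HMGN1 and HMGN2, and nothing besides genotype separates the groups in the labels. The question was whether the loss of both proteins altered chromatin accessibility at these loci. A listed peak summit was taken as belonging to a locus when it lay within 20 kb of the microRNA gene in the mouse genome mm10 (GENCODE M21 annotation), and 821 of the 1797083 listed summits did so. They fell into 91 windows of 501 bp, of 246991 windows over the genome. Of the 91, 74 were tested, among 179254 tested windows in all, and the other 17 did not have a summit with q under 0.01 in at least 2 libraries (16 of them were listed in 1 library and 1 in 2).

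A microRNA gene is transcribed as a long precursor, often from the promoter of a host gene or of a long non-coding RNA. The nuclear enzyme Drosha and its partner Dgcr8 cut out a hairpin, Dicer1 trims it to a short duplex, and an Argonaute protein carries a single strand to messenger RNAs that pair with its seed, bases 2 to 8. In fat, miR-193b, miR-365, miR-378 and miR-30 have been tied to brown or beige differentiation, and miR-133, miR-155 and miR-27 to its restraint. miR-143 has been linked to white adipocyte differentiation, miR-145 to smooth muscle identity and miR-21 to mesenchymal progenitors and fibroblasts.

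The mature strands below are shown because the seed decides which messenger RNAs each locus can act on. They come from RefSeq annotation of the GRCm38 assembly, which held 6 of the 10 genes, with the seed in capitals. miR-30c-5p, from the gene Mir30c-2 downstream of Mir30a, is added because the accessible site with the smallest p among the 74 windows lies between both genes.
miR-193b-3p: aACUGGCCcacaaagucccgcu
miR-365-3p: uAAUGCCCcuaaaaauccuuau
miR-30a-5p: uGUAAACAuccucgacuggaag
miR-30c-5p: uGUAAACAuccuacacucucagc
miR-155-5p: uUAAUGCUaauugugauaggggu
miR-27b-3p: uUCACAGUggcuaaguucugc
miR-21a-5p: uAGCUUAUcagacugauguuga
miR-30a-5p and miR-30c-5p carry the same seed, and no 2 of the 6 member genes share one. The 4 genes Mir143, Mir145a, Mir133a-1 and Mir378a are given by name only.

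The libraries were checked first. The list names give a cap of 300000 peaks, and each list held between 299433 and 299620 summits, so the totals were set by that cap and a summit count at a locus is a share of a fixed number. Read totals were not analysed here, and the commonest background level, which follows depth, was 2.42, 2.51 and 2.41 cut sites in WT and 2.58, 2.53 and 2.05 in DKO. DKO replicate 3 had the lowest, 0.848 of the mean over libraries. Lists ended at a pileup of 8 cut sites (DKO replicate 3), 10 (4 libraries) or 12 (WT replicate 3), and a window without a summit either fell below its list or had its local summit placed outside the 501 bp. Of 9 preadipocyte and stromal markers, between 7 and 9 had a listed summit within 1 kb of their start site. The counts were 1 to 2 of 4 for mature adipocytes, 0 to 1 of 4 for muscle and 0 to 2 of 2 for epithelium. Of 3 endothelial promoters 2 were listed in every WT library and 3 in every DKO library, the difference being Cdh5. Pecam1 went the other way, with fold enrichments of 16.9, 12.2 and 17.2 in WT and 11.1, 11.8 and 10.3 in DKO. Kdr values overlapped. Of 5 leukocyte promoters 3, 2 and 2 were listed in WT and 4, 4 and 3 in DKO, with Itgam in every DKO and no WT library, and the part of either cell class in the results was not tested. Among the deleted genes, the Hmgn2 start site had fold enrichments of 7.89, 7.53 and 9.45 across WT and was listed nowhere in DKO. With the lowest value of each list filled in for DKO, the log2 change was −2.33 with SE 0.30 (limma adjusted p = 0.0313), so its size and error rest on that fill and are not a measured fold. It did not pass when any single library was left out (adjusted p from 0.199 to 0.273). At the Hmgn1 promoter the values were 12.6, 13.9 and 20.1 in WT and 14.9, 16.2 and 14.4 in DKO (0.14 ± 0.13, adjusted p = 0.706). The labels do not say whether the libraries of a genotype came from separate animals, so p-values measure the spread between these libraries.

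No window at the 10 loci passed the threshold of a limma adjusted p under 0.05 in either direction. The 0 of 74 lower in DKO stand beside 0.034% of all tested windows, the 0 of 74 higher in DKO beside 0.0229%, and both directions together beside 0.0569%. These background shares rest on all 6 libraries, since with any single library left out between 0 and 1 windows of the genome passed as lower and between 0 and 6 as higher. At an unadjusted p under 0.05 there were 3 member windows (4.05%), against 11.8% of all windows. That order was reversed with pileups in place of fold enrichment, at 11 of 74 against 23103 of 179254 windows. It was also reversed without a mean-variance trend in the fit, at 9 of 74 against 17556 of 179254. Fold enrichment is the pileup at the summit over the local background in the same library, with 1 cut site added to each, and its log2 value was brought to a common distribution across libraries before the change (DKO minus WT) was computed. The change was above 0 in 47 of the 74 windows (63.5%, against 51.4% of all windows). The median was 0.10 over the members and 0.01 over all windows, and windows within 1 kb of any start site had a median of 0.09. The split of signs depended on the scaling: 30 of the 74 changes were above 0 without any, with a median of −0.06 where that of all windows was −0.14, and 36 were above 0 with pileups in place of fold enrichment. Before scaling, every WT value lay above every DKO value in 9 member windows (12.2%, against 12.5% of all), and the reverse held in 2 (2.70%, against 3.33%), so that 11 windows did not overlap (14.9%, against 15.9%). A library without a summit counted there as below every listed value. No member window had a summit in all libraries of 1 genotype and none of the other, a pattern seen for WT in 1.23% and for DKO in 1.14% of all windows. Within 20 kb of any of the 2196 annotated microRNA genes lay 7776 windows, and 8 of them (0.103%) passed the threshold.

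**Figure D1:**
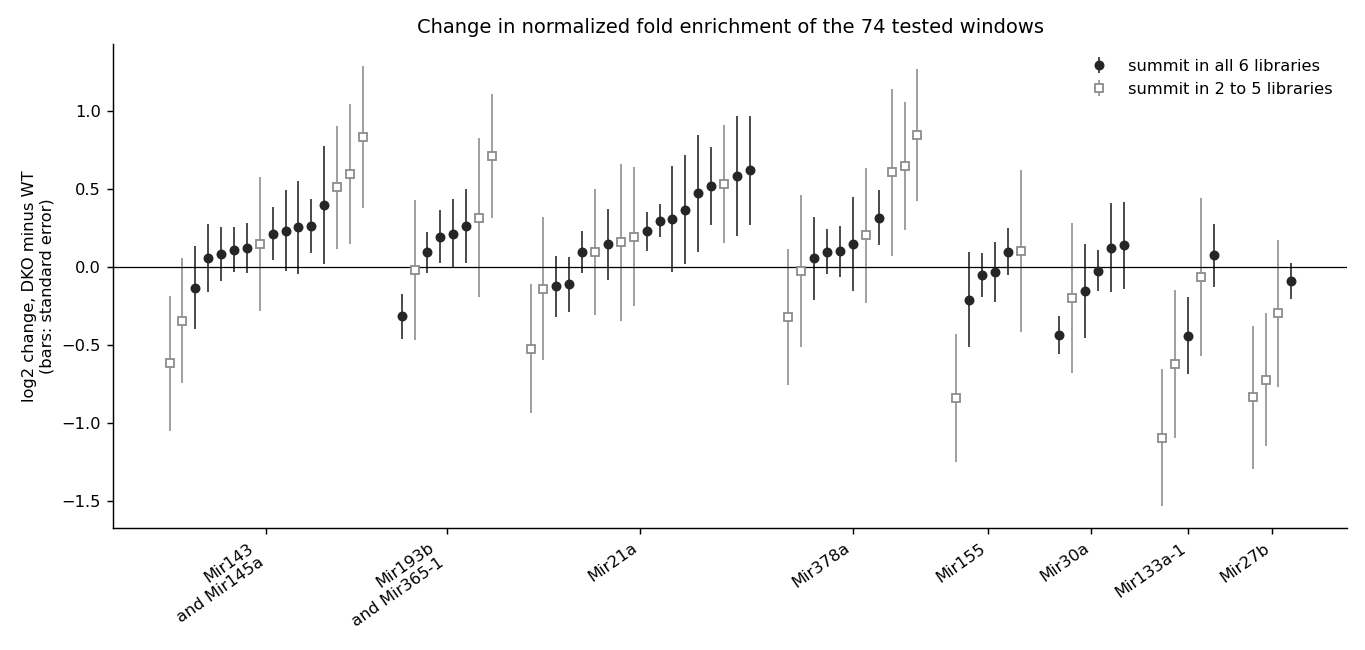
Log2 change in normalized fold enrichment (y axis, DKO minus WT, bars are the standard error) of each tested window, ordered by value within each locus on the x axis. Filled points had a summit in all 6 libraries and open squares in 2 to 5. The changes run from −1.10 to 0.84, and the changes farthest from 0 belong to windows that some libraries did not list.

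The precision of these changes depended on how many lists held the site. Of the 74 windows, 44 (59.5%) had a summit in all 6 libraries, against 58% of all windows. Their median standard error was 0.20 on the log2 scale, against 0.44 for the other member windows. In the latter, a library without a summit was given the lowest value of its list, so the size of their changes rests in part on that fill. Over the genome the smallest change in size that passed the threshold was 0.73. The summits at the 10 loci numbered 140, 141 and 135 in WT and 135, 141 and 129 in DKO. No summit lay inside any of the 10 hairpins in any library.

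Summit counts varied widely between the loci. Mir21a had the most summits, with 47, 43 and 45 in WT and 41, 45 and 44 in DKO. The region that Mir143 and Mir145a share had 35, 32 and 32 in WT and 40, 35 and 31 in DKO. Mir193b had 15, 17 and 14 in WT and 15, 16 and 18 in DKO, and Mir378a 13, 16 and 12 in WT and 14, 12 and 15 in DKO. Mir155 and Mir30a had between 7 and 14 in every library, and the groups overlapped at all of these loci. Mir27b (5, 8 and 5 in WT, 3, 3 and 5 in DKO) and Mir133a-1 (6, 8 and 5 in WT, 6, 3 and 2 in DKO) had the fewest, and at these loci too the groups overlapped or touched.

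**Figure D2:**
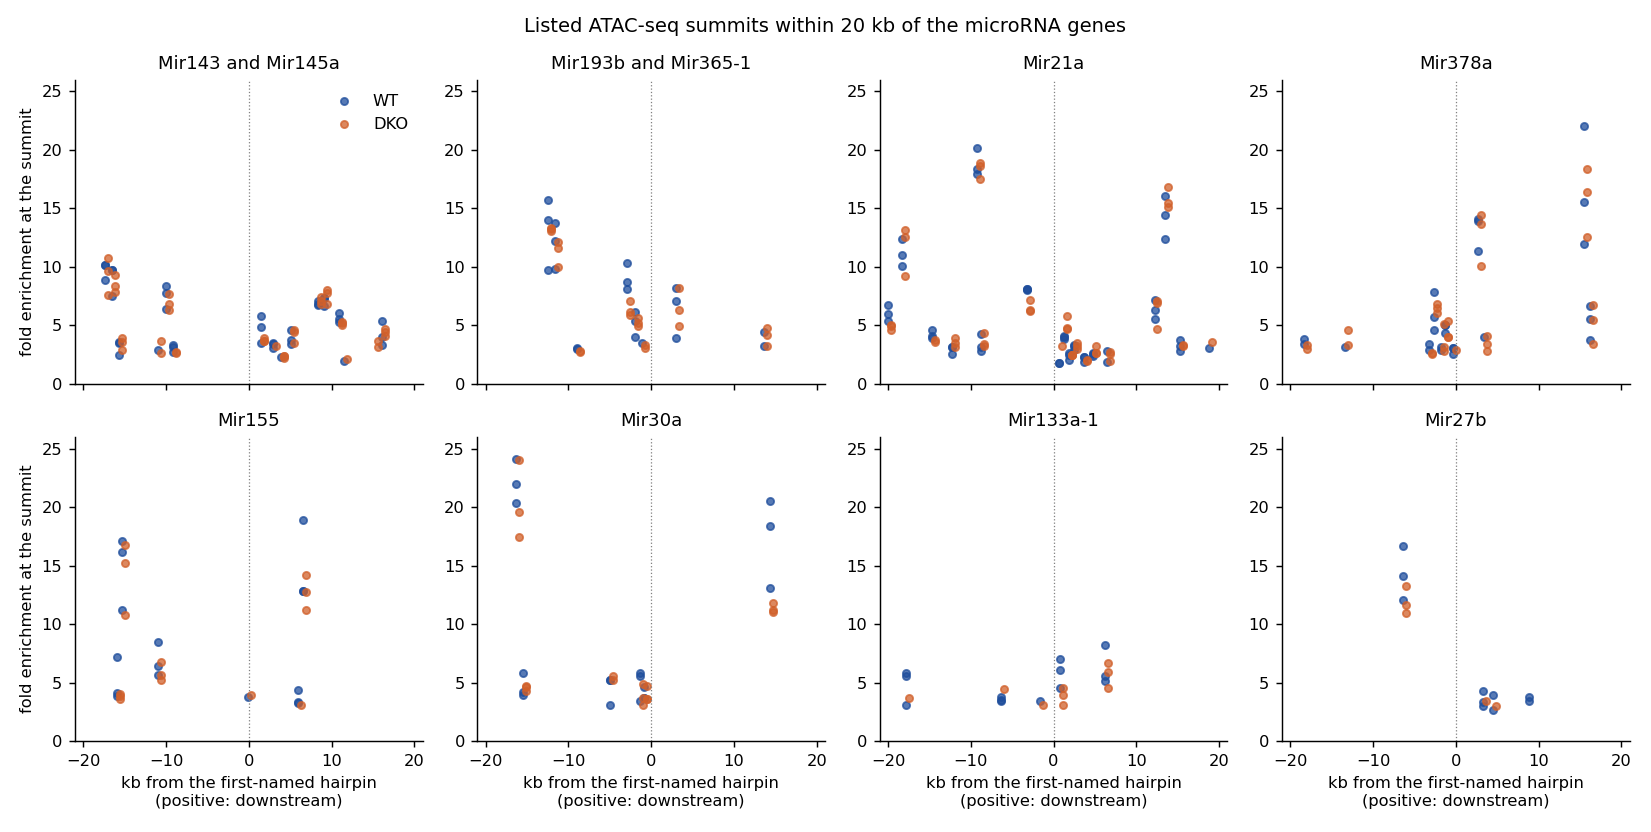
Fold enrichment at the summit (y axis) in each library for the tested windows, against the distance in kb from the first-named hairpin (x axis, positive is downstream in the direction of transcription). WT and DKO points are set slightly apart. The Mir30a, Mir21a, Mir378a, Mir155, Mir27b and Mir193b loci hold sites above 12, while the sites of Mir133a-1 stay under 9.

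Mir30a, whose product targets the corepressor gene Nrip1, lies at chr1:23272269-23272339 on the plus strand with no annotated host gene. Its nearest annotated upstream promoter on the same strand, that of the non-coding gene Gm26580, is 1312427 bp away and had no window. The strongest site was 16.2 kb upstream, at chr1:23255854-23256354, over an annotated exon. Fold enrichment there was 20.4, 22.0 and 24.1 in WT and 24.0, 17.5 and 19.6 in DKO. These groups overlap (−0.02 ± 0.13, limma adjusted p = 0.985). The site stood among the best 0.66% to 2.51% of each list, the best rank of any Mir30a site.

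The smallest p at the 10 loci belonged to the window 14.6 kb downstream of Mir30a, at chr1:23286677-23287177. This intergenic site is 4610 bp upstream of the start of Gm27028, the non-coding host of Mir30c-2. Fold enrichment was 18.4, 13.1 and 20.6 in WT and 11.2, 11.1 and 11.8 in DKO, and pileups were 62, 45 and 73 against 39, 38 and 35 cut sites. Every WT library was above every DKO library, with means of 17.4 ± 3.84 and 11.3 ± 0.40 (SD, n = 3 each). By p, the site ranked in the best 8.54%, 11.8% and 9.88% of the WT lists and the best 18.1%, 19.7% and 13.5% of the DKO lists. The log2 change was −0.44 ± 0.12, with an unadjusted limma p of 0.00420 and an adjusted p of 0.178, so it did not pass the threshold. Its sign was the same in all 16 alternative analyses, with adjusted p between 0.110 and 0.386.

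The central 101 bp of that window are printed as the site with the smallest p, on the plus strand of mm10 and with no motif of those searched. The window 1.20 kb upstream of the Mir30a hairpin is set beside it because it holds AP-1 and TEAD letters, shown in capitals.
Mir30a +14.6 kb, chr1:23286877-23286977: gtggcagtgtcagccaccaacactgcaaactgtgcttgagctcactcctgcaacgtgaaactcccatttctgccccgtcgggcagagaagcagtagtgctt
Mir30a −1.20 kb, chr1:23271018-23271118: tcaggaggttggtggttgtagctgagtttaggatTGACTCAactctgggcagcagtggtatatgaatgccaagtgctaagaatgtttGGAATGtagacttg
Nearer to the hairpin the sites were weak. The window 1.20 kb upstream had 5.55, 3.42 and 5.80 in WT and 3.08, 3.67 and 4.92 in DKO (−0.16 ± 0.30). The nearest, 0.658 kb upstream, had 4.67, 3.70 and 3.73 in WT and 3.63, 4.75 and 3.60 in DKO (0.12 ± 0.28, adjusted p = 0.911). In both the genotypes overlapped.

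Mir193b and Mir365-1, a cluster that acts on the gene of the transcriptional repressor Runx1t1, lie at chr16:13449523-13449601 and chr16:13453840-13453926 on the plus strand, inside the opposite-strand non-coding gene Gm15738. They share all 8 of their tested windows. The nearest same-strand start upstream belongs to Mrtfb, a cofactor of serum response factor, 91102 bp from Mir193b. Its window had fold enrichments of 15.5, 15.7 and 17.0 in WT and 18.4, 18.9 and 16.4 in DKO. DKO replicates 1 and 2 were above every WT library and DKO replicate 3 was not. The change of 0.29 ± 0.11 had an unadjusted limma p of 0.0188 and an adjusted p of 0.299, and was 0.15 without scaling.

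The strongest site of the cluster was 12.3 kb upstream of Mir193b, with 9.73, 14.0 and 15.7 in WT and 13.3, 13.0 and 13.2 in DKO (0.19 ± 0.17, adjusted p = 0.672). The site 2.77 kb upstream, at chr16:13446504-13447004, had 8.70, 8.08 and 10.3 in WT and 6.11, 7.06 and 5.94 in DKO. Pileups were 44, 39 and 59 against 31, 37 and 25 cut sites. All WT values lay above all DKO values, with means of 9.03 ± 1.15 and 6.37 ± 0.61. The change of −0.32 ± 0.14 did not pass, with an unadjusted limma p of 0.0509 and an adjusted p of 0.426. Its 101 central bases are given because it had the smallest p of the cluster, and hold none of the motifs searched.
Mir193b −2.77 kb, chr16:13446704-13446804: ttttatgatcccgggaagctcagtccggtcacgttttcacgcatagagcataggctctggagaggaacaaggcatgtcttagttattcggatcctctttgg
The neighbouring windows did not separate the genotypes. At 1.73 kb upstream the values were 6.18, 4.04 and 5.34 in WT and 5.68, 4.97 and 5.24 in DKO. The nearest site to Mir193b, 0.925 kb upstream, was listed in WT replicate 2 (3.48), DKO replicate 2 (3.31) and DKO replicate 3 (3.05) only. The nearest to Mir365-1, 1.12 kb upstream, had 7.10, 3.90 and 8.21 in WT and 6.35, 8.23 and 4.92 in DKO (0.26 ± 0.24, adjusted p = 0.686), and without WT replicate 2, the lowest, the change was 0.039. Downstream, 13.8 kb from Mir193b, a weak site had 3.21 and 4.40 in WT replicates 1 and 3, none in WT replicate 2, and 4.19, 4.82 and 3.28 in DKO (0.71 ± 0.39, adjusted p = 0.460).

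Mir378a, whose target Pde1b codes for a phosphodiesterase, lies at chr18:61397835-61397900 on the minus strand, in an intron of Ppargc1b. That host codes for the coactivator PGC-1β of mitochondrial genes. The host promoter window, 2.50 kb from the hairpin, had 5.76, 4.62 and 7.85 in WT and 6.84, 6.53 and 6.07 in DKO. The groups overlap, and the change was 0.32 ± 0.18 (limma adjusted p = 0.460), or 1.08 with the 100000 best summits of each list and 0.12 without scaling. The strongest site was deeper in the host, 15.7 kb downstream of the hairpin, with 15.6, 12.0 and 22.0 in WT and 16.4, 18.4 and 12.6 in DKO (0.10 ± 0.15, adjusted p = 0.822). A second intronic site, 2.82 kb downstream, had 14.1, 11.4 and 13.9 in WT and 13.7, 10.1 and 14.4 in DKO, an overlap again. The largest positive change at the 10 loci, 0.84 ± 0.42 (adjusted p = 0.458), was in the window 3.63 kb downstream, where WT replicate 3 had 4.02, the other WT libraries had no listed summit, and DKO had 3.41, 4.08 and 2.86. The window nearest the hairpin, 0.135 kb upstream, had 3.11, 2.58 and 3.11 in WT and 2.90 in DKO replicate 1, with no summit in the other DKO libraries (−0.32 ± 0.44, adjusted p = 0.800).

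Mir133a-1, a muscle microRNA whose target Prdm16 specifies brown fat, lies at chr18:10782909-10782976 on the minus strand. It is in an intron of its own non-coding host Mir133a-1hg, inside the opposite-strand gene Mib1. The host start, 2907 bp from the hairpin, had no window. Its strongest site was lower than that of any other locus, and its tested windows had fold enrichments from 3.08 to 8.22 over pileups of 10 to 27 cut sites. That strongest site, 6.35 kb downstream, had 5.55, 5.12 and 8.22 in WT and 6.71, 5.95 and 4.59 in DKO (0.07 ± 0.20, limma adjusted p = 0.934). The nearest, 0.963 kb downstream, had 6.13, 4.55 and 7.04 in WT and 3.08, 4.54 and 3.93 in DKO. WT replicate 2 and DKO replicate 2 differed there by less than 0.1 although every WT value was above every DKO value (−0.44 ± 0.25, adjusted p = 0.460). The most negative change at the 10 loci, −1.10 ± 0.44, was 17.7 kb upstream in an intron of Mib1. There WT had 5.84, 3.13 and 5.58, DKO replicate 2 had 3.69, and the other DKO libraries had no listed summit, with an unadjusted limma p of 0.0306 and an adjusted p of 0.361, and the change was −0.36 with pileups. The DKO replicate 2 value lies above that of WT replicate 2, and the pileups were 19, 10 and 18 cut sites in WT against 12, close to the ends of the lists.

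**Figure D3:**
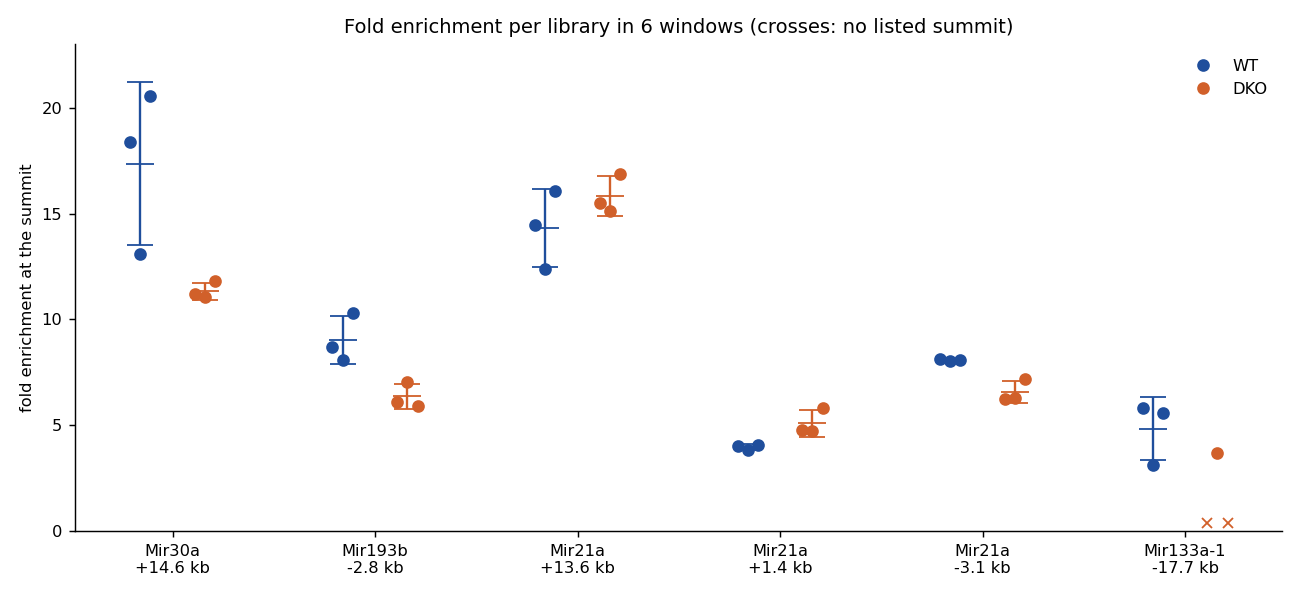
Fold enrichment (y axis) per library in 6 windows, named by microRNA gene and distance from its hairpin. Points are libraries, bars are the mean ± SD of the libraries with a summit, and crosses mark libraries with none. The genotypes separate at Mir30a +14.6 kb, Mir193b −2.8 kb, Mir21a +1.4 kb and Mir21a −3.1 kb, and overlap at Mir21a +13.6 kb and Mir133a-1 −17.7 kb. Values are shown before scaling, and the 6 windows were picked with values known. The genotypes did not overlap in 14.9% of the 74 member windows and 15.9% of all tested windows.

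Mir155, which acts on the adipogenic factor gene Cebpb, lies at chr16:84714140-84714204 on the plus strand, in an exon of its host Mir155hg. The host promoter window (chr16:84703048-84703548) had 6.44, 5.65 and 8.53 in WT and 5.22, 5.63 and 6.75 in DKO, which overlap (−0.03 ± 0.19, limma adjusted p = 0.990). Its centre is 131 bp inside the gene, and the letters TGAGTCA of the AP-1 motif are centred 11 bp upstream of the best summit, in capitals here.
Mir155hg promoter, chr16:84703248-84703348: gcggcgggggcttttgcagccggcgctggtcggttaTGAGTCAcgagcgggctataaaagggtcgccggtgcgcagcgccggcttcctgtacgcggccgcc
The strongest site, 15.2 kb upstream of the hairpin and 4232 bp before the host start, had 17.1, 11.2 and 16.2 in WT and 16.8, 15.3 and 10.8 in DKO (0.10 ± 0.15, adjusted p = 0.831). A site of like height, 6.69 kb downstream in an intron of Mrpl39, a gene of the mitochondrial ribosome, had 12.8, 12.8 and 18.9 in WT and 11.2, 12.8 and 14.2 in DKO. Beside it, 6.07 kb downstream, a weak site had 3.30, 3.39 and 4.42 in WT and 3.11 in DKO replicate 2 alone (−0.84 ± 0.41, adjusted p = 0.454). Beside the hairpin, 101 bp downstream, WT replicate 3 (3.82) and DKO replicate 2 (3.97) alone had a summit. The host exon that is cut into miR-155 thus had a summit in 1 library of each genotype, while the host promoter was listed in all 6.

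Mir27b, whose targets include Prdm16, lies at chr13:63300712-63300784 on the plus strand in an intron of 2010111I01Rik, an aminopeptidase gene, and within the opposite-strand gene Fancc. Neither the host start nor the nearest upstream start, that of Gm47587, 158218 bp away, had a window. Of 9 windows at the locus 4 were tested, and all 4 changes were below 0, while 51.4% of all tested windows were above 0. The signs stayed below 0 without scaling, with median centring and with pileups or −log10 p in place of fold enrichment. But 3 of the 4 windows were listed in more WT than DKO libraries. Each setting filled the missing libraries with the lowest list value, so the repeated sign of those 3 rests in part on that fill. Without DKO replicate 2 the change of the window listed in all 6 libraries was 0.00073. A single window was listed in all 6 libraries, 6.17 kb upstream and 2601 bp inside the antisense non-coding gene Gm16907. It had 14.2, 12.1 and 16.6 in WT and 13.2, 11.0 and 11.7 in DKO (−0.09 ± 0.11, limma adjusted p = 0.780). The other 3 were weak. The nearest, 3.46 kb downstream, had 3.33, 3.03 and 4.28 in WT and 3.41 in DKO replicate 2 alone (−0.72 ± 0.43, adjusted p = 0.474). The site 8.97 kb downstream had 3.48 and 3.76 in WT replicates 1 and 2, with pileups of 14 cut sites in both, and no summit elsewhere. It was tested only through these WT libraries, and every DKO value was filled in. Its sign therefore followed from the fill and does not test the genotypes (−0.84 ± 0.46, limma adjusted p = 0.460).

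Mir143 and Mir145a lie at chr18:61649196-61649258 and chr18:61647825-61647894 on the minus strand with no annotated host, and share all 16 of their tested windows. The nearest upstream start is that of Carmn, a non-coding RNA of the smooth muscle and cardiac lineages, 16232 bp from Mir143. Its promoter window had 9.75, 7.48 and 9.77 in WT and 9.35, 7.87 and 8.33 in DKO (0.11 ± 0.14, limma adjusted p = 0.791). The strongest site, 960 bp upstream of the Carmn start, had 8.87, 10.1 and 10.2 in WT and 9.64, 10.8 and 7.60 in DKO (0.12 ± 0.16, adjusted p = 0.795). In both the genotypes overlap. The opposite-strand non-coding gene Bvht had a site 336 bp inside its start, 9.21 kb downstream of Mir143, with 7.36, 6.65 and 7.33 in WT and 7.80, 6.79 and 8.02 in DKO. The window nearest to both hairpins, centred 0.255 kb downstream of Mir145a, had 5.83, 3.53 and 4.90 in WT and 3.69, 3.97 and 3.63 in DKO (−0.13 ± 0.27, adjusted p = 0.888). The nearest single summits were 13, 239 and 127 bp from the Mir145a hairpin in WT and 14, 25 and 17 bp in DKO. The window with the most positive change, 15.5 kb downstream of Mir143, was listed in DKO replicates 1 (3.65) and 3 (3.19) alone. It was tested only through these DKO libraries, and every WT value was filled in. Its sign therefore followed from the fill and does not test the genotypes (0.83 ± 0.46, limma adjusted p = 0.459). The most negative, 3.13 kb downstream, had 3.08, 3.40 and 3.47 in WT and 3.22 in DKO replicate 1 alone (−0.62 ± 0.43, adjusted p = 0.556). Every WT value was above every DKO value in 2 of the 16 tested windows of the locus, against 12.5% of all tested windows. The site 11.0 kb downstream had 5.32, 6.02 and 5.52 in WT and 5.32, 5.19 and 5.05 in DKO, a narrow gap that the scaling turned to 0.06 ± 0.22. The site 8.95 kb upstream had 3.30, 2.72 and 3.20 in WT and 2.64 and 2.71 in DKO replicates 1 and 2, with none in DKO replicate 3 (−0.34 ± 0.40, adjusted p = 0.760).

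Mir21a lies at chr11:86584067-86584158 on the minus strand, in the last, untranslated part of its host Vmp1, which codes for an autophagy protein of the endoplasmic reticulum. The Vmp1 promoter, 99678 bp from the hairpin, had 14.4, 11.9 and 13.3 in WT and 10.4, 11.6 and 9.59 in DKO. Every WT value was above every DKO value, but the scaled change was −0.15 ± 0.13 (limma adjusted p = 0.660). It was −0.075 without WT replicate 1, −0.26 without WT replicate 3, −0.32 without scaling and −0.45 with pileups. Of 18 tested windows around the hairpin, 14 changes were above 0 and 4 below, with a median of 0.21, but without scaling 11 were above 0 and with pileups 7. The strongest site was 9.10 kb upstream of the hairpin in a Vmp1 intron, with 17.9, 20.2 and 18.4 in WT and 18.9, 17.5 and 18.6 in DKO (0.09 ± 0.14, adjusted p = 0.812). It stood in the best 0.408% to 1.72% of the lists. The site 13.6 kb downstream had 14.4, 12.4 and 16.1 in WT and 15.5, 15.1 and 16.9 in DKO, which overlap. Its change was 0.30 ± 0.11, with an unadjusted limma p of 0.0194 and an adjusted p of 0.303, and it was 0.15 without scaling and 0.11 with pileups.

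Around the Mir21a hairpin the local background was itself high, and fold enrichment and pileup have to be read side by side. In the window 1.41 kb downstream the pileups were 184, 138 and 244 cut sites in WT and 198, 191 and 180 in DKO. Background there was 44.7, 35.4 and 59.0 in WT and 40.8, 39.7 and 30.0 in DKO, many times the commonest background of these libraries. Fold enrichment was therefore 4.05, 3.82 and 4.08 in WT and 4.76, 4.72 and 5.84 in DKO. All DKO values were above all WT values, while the pileups overlapped (0.52 ± 0.25, limma adjusted p = 0.451). In the window 3.05 kb upstream, in a Vmp1 intron, pileups were 243, 195 and 313 cut sites in WT and 165, 172 and 147 in DKO. In each WT library this was the highest pileup of the 74 windows, but not in DKO. Fold enrichment there was 8.14, 8.06 and 8.10 in WT and 6.23, 6.31 and 7.18 in DKO, so that both measures were higher in every WT library. After scaling the change was −0.11 ± 0.18 (adjusted p = 0.837). The nearest window, 0.870 kb downstream, had 1.78 and 1.83 in WT replicates 1 and 2 and 3.25 in DKO replicate 2, with no other summit (0.19 ± 0.45, adjusted p = 0.912).

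**Figure D4:**
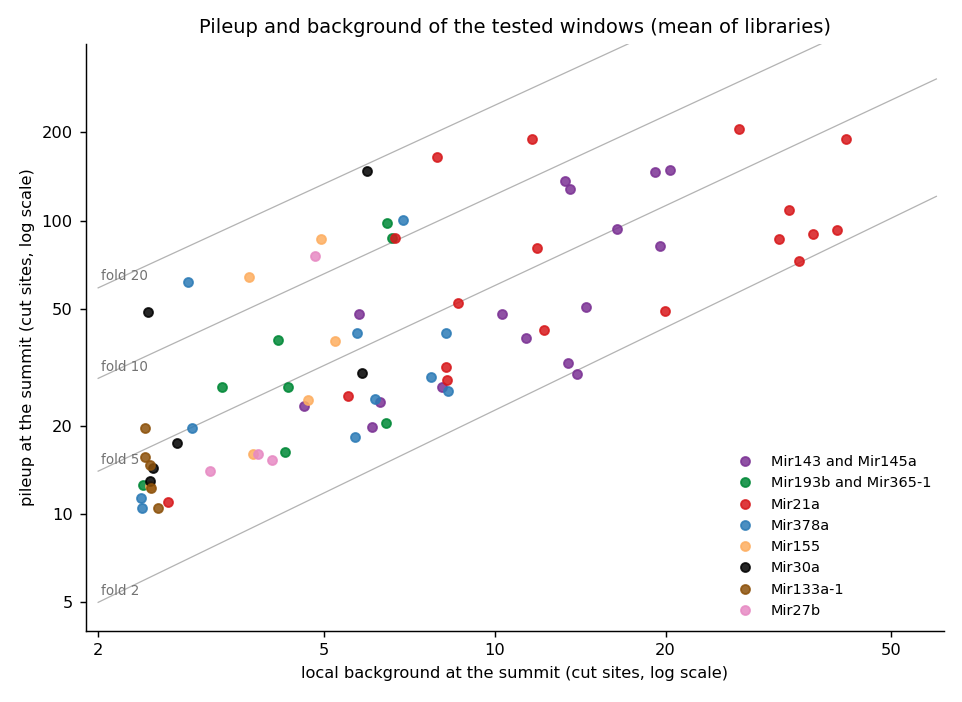
Mean pileup at the summit (y axis, cut sites, log scale) against mean local background (x axis, cut sites, log scale) of the tested windows, over the libraries with a summit. Grey lines mark equal fold enrichment of 2, 5, 10 and 20. The Mir21a and Mir143 and Mir145a windows reach far to the right, with backgrounds of up to 59.0 and 27.2 in single libraries, and Mir133a-1 sits at the lower left, with backgrounds of at most 2.58.

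Background was also high at Mir143 and Mir145a, with a median of 12.8 cut sites at the summits, close to the 12.6 of Mir21a, and a lower maximum. At Mir133a-1 the median was 2.51 and at Mir30a 2.60. Fold enrichments of the Mir21a and Mir143 and Mir145a loci were therefore lower for a given pileup than those of the remaining loci. The Bvht site, for example, had pileups of 155, 123 and 196 in WT and 150, 136 and 118 in DKO, more than the Mir30a site 14.6 kb downstream in each library, at less than 9 fold enrichment.

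Within 201 bp around each window's best summit, motif letters were looked for on either strand. The AP-1 motif, bound by FOS and JUN proteins, was taken as TGAGTCA, and was found in 19 of the 74 windows (25.7%) and in 23.6% of all windows. TEAD letters (GGAATG) were in 13.5% of the members and 16.3% of all windows, E-box letters (CAGCTG) in 9.46% and 14.0%, RUNX letters (TGTGGTT) in 4.05% and 6.97% and STAT letters (TTCNNNGAA) in 5.41% and 6.82%. The CArG motif of serum response factor was in 2 members (2.70%, against 0.971%), the CTCF motif in 1 (1.35%, against 3.07%) and the NFI motif in 0 (0.0363% of all windows). None of these letter strings contains another. Both Mir21a sites below have AP-1 letters centred within 10 bp of the best summit and are printed for that, with E-box letters also in capitals in the second.
Mir21a −9.10 kb, chr11:86593209-86593309: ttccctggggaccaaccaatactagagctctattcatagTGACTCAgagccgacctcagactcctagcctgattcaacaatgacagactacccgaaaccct
Mir21a −18.1 kb, chr11:86602244-86602344: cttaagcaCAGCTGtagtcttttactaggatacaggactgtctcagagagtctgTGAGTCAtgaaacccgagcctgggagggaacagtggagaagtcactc
The second of these sites had fold enrichments of 11.0, 10.1 and 12.4 in WT and 12.6, 13.1 and 9.27 in DKO (0.23 ± 0.13, limma adjusted p = 0.460), and like the first it did not separate the genotypes. Another Mir21a site with AP-1 letters near its summit, −14.6 kb from the hairpin, had 4.62, 4.08 and 3.96 in WT and 3.62 and 3.77 in DKO replicates 1 and 2, with no summit in DKO replicate 3. There every WT value was above every DKO value (−0.52 ± 0.41, adjusted p = 0.620).

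The promoters of the 5 host or upstream genes with a window (Carmn, Mrtfb, Mir155hg, Ppargc1b and Vmp1) gave 0 calls, with 3 changes above 0 and 2 below, or 2 and 3 without scaling. Genes of the microRNA machinery also gave none. Of the 27871 tested windows within 1 kb of a start site, 0.0359% passed and 10.7% had an unadjusted limma p under 0.05. Of 15 such genes 13 had a promoter window, and Lin28a and Lin28b, which block the maturation of let-7, had none. In all, 10 of the 13 changes were above 0, the median was 0.06 and 2 had an unadjusted limma p under 0.05. Without scaling 4 of the 13 were above 0. Drosha had 24.8, 22.6 and 29.8 in WT and 28.6, 28.7 and 30.4 in DKO, which overlap, and its change of 0.28 ± 0.09 had an unadjusted limma p of 0.00865 and an adjusted p of 0.216. Ago3, an Argonaute gene, had 9.81, 11.0 and 11.9 in WT and 12.4, 12.1 and 13.7 in DKO, with every DKO library above every WT library, and its change of 0.39 ± 0.14 had an unadjusted limma p of 0.0202 and an adjusted p of 0.309. Dicer1 had 12.3, 13.0 and 14.8 in WT and 14.0, 14.3 and 12.8 in DKO (0.20 ± 0.11, adjusted p = 0.462).

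All 12 genes chosen as known targets of these microRNAs had a promoter window, and 0 passed the threshold, with 0 at an unadjusted limma p under 0.05. Of their changes 9 were above 0 and 3 below, with a median of 0.10, and without scaling 5 were above 0. Klf4, a miR-145 target and pluripotency factor, had 4.64, 5.52 and 6.54 in WT and 5.09, 7.15 and 8.46 in DKO (0.48 ± 0.24, adjusted p = 0.457). Nrip1, the miR-30 target, had 6.05, 7.98 and 8.77 in WT and 8.22, 8.10 and 8.69 in DKO (0.34 ± 0.18, adjusted p = 0.458). Osbpl8, an oxysterol-binding protein gene acted on by miR-143, had 10.1, 10.7 and 10.9 in WT and 10.2, 13.1 and 10.2 in DKO (0.25 ± 0.14, adjusted p = 0.465). In each the genotypes overlapped.

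**Figure D5:**
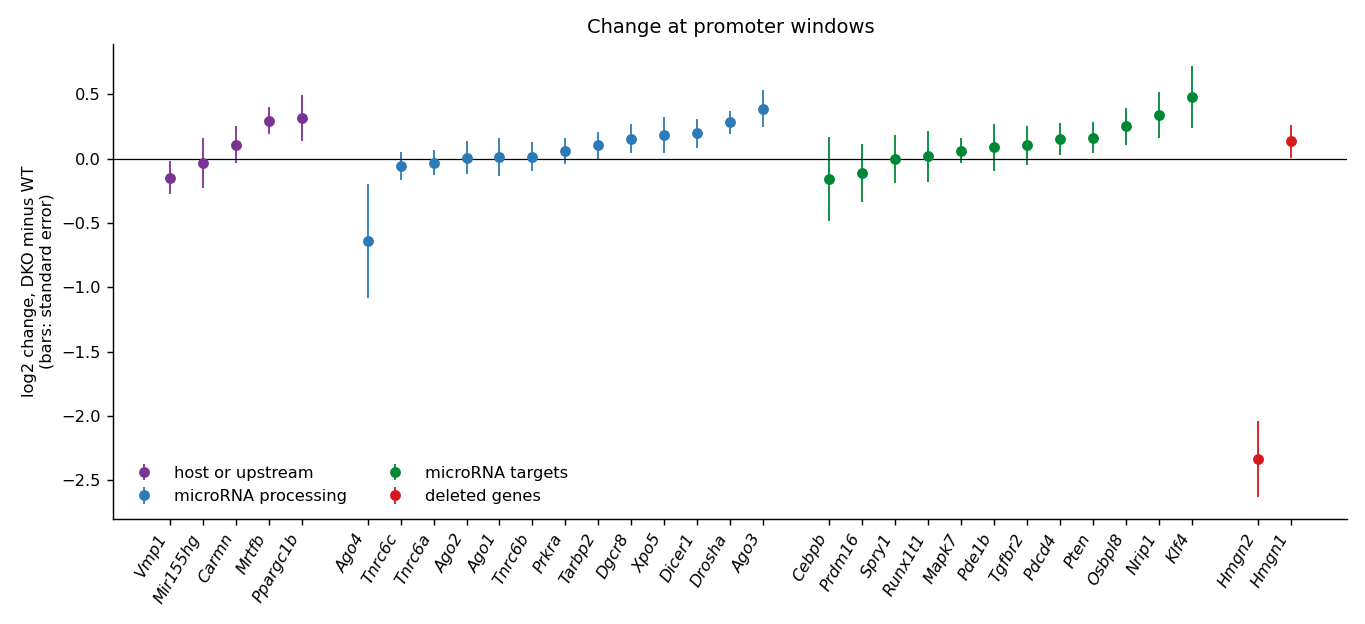
Log2 change in normalized fold enrichment (y axis, DKO minus WT, bars are the standard error) at the promoter windows of host or upstream genes, microRNA processing genes, microRNA targets and the deleted genes (x axis, by gene). The Hmgn2 point at −2.33 stands apart, and those of the first 3 groups lie between −0.64 and 0.48.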

How the data were processed

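Per the labels, the submitters' processing notes, the names of the deposited lists and the study's methods, ATAC-seq libraries were sequenced paired-end, trimmed (cutadapt 1.18), aligned to mm10 with Bowtie2 2.3.4.3, freed of duplicate and mitochondrial reads, reduced to Tn5 cut sites and given to MACS2 in each library separately, with the best peaks by p kept and blacklisted regions removed. The list names give a p of 0.01 and a cap of 300000 peaks, whereas the study's methods state default settings. The MACS2 version was not given in the sources used here. The deposited lists hold fold enrichment (a ratio of summit pileup to local background), −log10 p and q, a score derived from them that was not used, and the summit position. They are not corrected for depth, so fold enrichment is comparable between libraries only after scaling. Pileups were recovered as whole numbers for 100% of summits (within 0.01 in −log10 p).

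Windows of 501 bp were centred on the best ranked summits, and tested where at least 2 libraries had a summit with q under 0.01 (chromosomes 1 to 19 and X). The highest fold enrichment in a window was its value, and a library without a summit received the lowest value of its list. Log2 values were quantile-normalized and compared with limma 3.58.1 (R 4.3.3, lmFit and eBayes with trend, two-sided, Benjamini-Hochberg over all windows, threshold 0.05). The fit was also run on simulated data, with the outcome not reported here. Windows were annotated with GENCODE M21, and sequences read with pysam 0.24.0 in Python 3.11.15. Promoter windows lay within 1 kb of a start site. Named were, for each gene, the window of highest mean, the nearest window and the promoter windows, the 10 member windows with the smallest p, and of each list the 3 with the smallest p. The remaining windows, motif counts and sites next to a named window were chosen with values known. The members and gene lists were chosen with earlier results of these data known.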

Additional observations from a re-analysis of the deposited data

How the results depend on the processing

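No window at the 10 loci passed the threshold under any of the alternatives run, in either direction. At an unadjusted p under 0.05 there were 0 of 46 within 10 kb and, of 142 within 50 kb, 3 lower and 5 higher. In that fit 21132 of all 179254 windows had such a p. Under the other alternatives there were between 2 and 11. The 2 came with the replicate block (18199 of all 179254) and without WT replicate 1 (17852), and the 11 with pileups (23103). The alternatives were other scalings (none, median centring), −log10 p or pileup in place of fold enrichment, other filters, distances of 10 and 50 kb, window half-width 500 bp, eBayes without trend, the replicate block and each library left out. No promoter of the lists passed the threshold either, under the alternatives other than the distances of 10 and 50 kb, which were not run for them. Over all windows the calls ran from 0 with the replicate block, or with the 100000 best summits, to 2088 lower and 2048 higher without the trend, against 61 and 41. With any single library left out they were 0 to 1 lower and 0 to 6 higher. Same-numbered libraries did not deviate together (r = 0.0054, −0.0115 and −0.0071), so the block does not pair them. The median over all windows was −0.14 when no scaling was applied.

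The count of windows listed in all WT and no DKO libraries ran from 0 to 3 with a library left out (3 without DKO replicate 1 or 2, 1 without WT replicate 3). The count listed in DKO alone ran from 0 to 1 (1 without WT replicate 2 or 3 or DKO replicate 2), and was 1 within 50 kb. The Hmgn2 change lost its call without scaling (−2.42), with the 100000 best summits (−1.73), with the replicate block (−2.33) and without any single library (−2.37 to −2.29). The Hmgn1 change was −0.0054 without scaling, 0.37 with −log10 p and 0.35 with pileups, and ran from −0.0059 to 0.24 with a library left out.

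Of 576 values of 38 named windows under the alternatives, 33 had another sign than in the text, and none became a call. Without scaling these were Mir21a −9.10 kb (−0.038), Mir155 −15.2 kb (−0.056), Mir133a-1 +6.35 kb (−0.12), Mir378a +15.7 kb (−0.037), the Carmn promoter (−0.072), the site upstream of it (−0.069) and Mir30a −0.658 kb (−0.017). With −log10 p, Mir21a −9.10 kb was −0.11, the Carmn promoter −0.092 and the site upstream of it −0.10. With pileups they were −0.15, −0.13 and −0.13, and Mir21a +0.870 kb was −0.73. Mir30a −16.2 kb was 0.031 with median centring, and the window nearest Mir145a 0.013 at half-width 500 bp. With a library left out, the changes of windows that crossed 0 ran from −0.20 to 0.36 (Mir21a +0.870 kb), −0.023 to 0.24 (Mir21a −9.10 kb), −0.15 to 0.00073 (Mir27b −6.17 kb), −0.010 to 0.36 (Mir193b −12.3 kb), −0.015 to 0.23 (Mir155 −15.2 kb), −0.19 to 0.061 (Mir155hg promoter), −0.36 to 0.44 (Mir155 +0.101 kb), −0.037 to 0.18 (Mir133a-1 +6.35 kb), −0.013 to 0.24 (Mir378a +15.7 kb), −0.24 to 0.030 (nearest Mir145a), −0.14 to 0.10 (Mir30a −16.2 kb) and −0.019 to 0.23 (Mir30a −0.658 kb). Other changes kept their sign but moved by over 1.5 times with a library left out, without becoming calls: Mir193b −0.925 kb (0.099 to 0.75), Mir365-1 −1.12 kb (0.039 to 0.40), Mir193b +13.8 kb (0.33 to 0.93), Mir378a −0.135 kb (−0.67 to −0.12), Mir133a-1 +0.963 kb (−0.54 to −0.28), Mir27b +3.46 kb (−1.13 to −0.53) and +8.97 kb (−1.20 to −0.55), Mir143 +15.5 kb (0.59 to 1.25), the Carmn promoter (0.054 to 0.20), the site upstream of it (0.036 to 0.27), and the promoters of Vmp1 (−0.26 to −0.075), Klf4 (0.28 to 0.70), Nrip1 (0.19 to 0.50) and Osbpl8 (0.16 to 0.37). Under the other alternatives 63 of 348 changes kept their sign and moved by over 1.5 times, 19 of them with −log10 p, 18 without scaling, 14 with pileups and 6 with the 100000 best summits. Smaller without scaling were the promoters of Osbpl8 (0.074), Dicer1 (0.037), Nrip1 (0.15) and Mrtfb (0.15), and with pileups Klf4 (0.13). Larger with the 100000 best summits were the Ppargc1b promoter (1.08), the Mir155hg promoter (−0.82), Mir193b −2.77 kb (−0.80), Mir21a +1.41 kb (0.95), the window nearest Mir145a (−0.39) and Klf4 (0.81). The causes were not tested.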
